A study of Homo sapiens with 12 samples.

Results

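The arrays described here are the 3 vector controls of a bead-array study of Caco-2 cells, a human epithelial line from a colorectal adenocarcinoma, and they were chosen by their titles, OE control 1 to 3, out of 12 arrays in all. These cells had been transfected with the plasmid pCMV-Neo, the negative control for a SIRT1 overexpression plasmid, and the values describe the line as a transfected control rather than as untouched cells. The other arrays were OE Sirt1 (pCMV-ENTRY Sirt1, n = 3), the knockdowns KD1 and KD2 (non-overlapping siRNAs against SIRT1, n = 2 each) and an siRNA control (a low-GC scrambled siRNA, n = 2). All groups were grown in DMEM with fetal calf serum, and the submitters describe the arrays of a group as biological replicates. The siRNA groups were lysed after 72 h, whereas the time of lysis after plasmid transfection, the density of the cultures and their days after confluence are not stated in the sources at hand. The question addressed was which genes of gut, liver-like, secretory, transport and housekeeping programmes gave a signal in this line and which did not.

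Caco-2 cells come from the colon, yet in culture they can form a polarised layer with microvilli and with enzymes of the small intestinal absorptive cell. In such a cell, transcription factors of the CDX family set intestinal identity, villin and ezrin build the brush border, and apolipoproteins package absorbed fat for export. The line is also known for making plasma proteins typical of fetal liver and gut endoderm.

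Each probe carried an intensity in arbitrary units and a detection value, and a probe counted as detected on an array where that value was above 0.99, which corresponds to a detection p below 0.01. A gene counted as detected where any probe naming it alone was detected on all 3 vector arrays, as not detected where no probe reached the threshold on any of them, and as mixed otherwise. Levels are log2 normalised signals of the probe with the highest mean over the 12 arrays, given as mean ± SD over the 3 vector arrays. A signal depends on its probe as well as on the RNA, so the order of signals is an order of probes, and a probe below threshold does not show that a transcript was absent. In these bulk samples, fewer cells making a transcript and less of it per cell cannot be told apart.

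Of 20046 genes with a named probe, 9299 (46.4%) were detected on all 3 vector arrays, 1297 (6.47%) were mixed and 9450 (47.1%) were not detected. The median level was 8.64 for detected genes and 4.76 for those not detected. The vector arrays detected 15345 to 15871 of 47323 probes, the lowest range of any group, against 16186 to 17981 on the other 9 arrays. Their raw medians were 108.6 to 125.1, and Pearson's r across genes ran from 0.989 to 0.991 among them, which describes agreement across genes and not replicate error. Of the detected genes, 9056 (97.4%) were detected on all 12 arrays of the study. Of the genes not detected, 7499 were detected on no array of the study. Among 3721 detected genes with more than 1 probe, 2300 had at least 1 probe that was not detected, so probes of a gene often disagreed.

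The marker panel named for the line gave a divided answer. Apolipoprotein A1 (APOA1), the main protein of high-density lipoprotein, had levels of 13.93, 13.87 and 13.78 on the 3 vector arrays, with raw intensities between 12401.4 and 14720.3. CDX2, the transcription factor that sets intestinal identity, had 10.56, 10.48 and 10.35. Villin (VIL1), which bundles the actin of microvilli, had 9.59, 9.46 and 9.57. These 3 markers were detected on every one of the 12 arrays, and the vector arrays differed little among themselves for each of them.

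The other 2 markers were not detected. Keratin 20 (KRT20), a filament protein of mature gut surface cells, had levels of 5.31, 5.19 and 5.33, with neither of its 2 probes above threshold on any vector array. FABP1, the liver-type fatty acid binding protein of small intestinal absorptive cells and hepatocytes, had 4.56, 4.83 and 4.76 on its single probe. FABP1 lay near the median of undetected genes and KRT20 in their upper range. Of the 12 arrays, 3 detected KRT20 and 1 detected FABP1. Detection in the panel was therefore of intestinal identity, the brush border bundler and the secreted apolipoprotein, without the surface keratin or the fatty acid carrier.

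**Figure D1:**
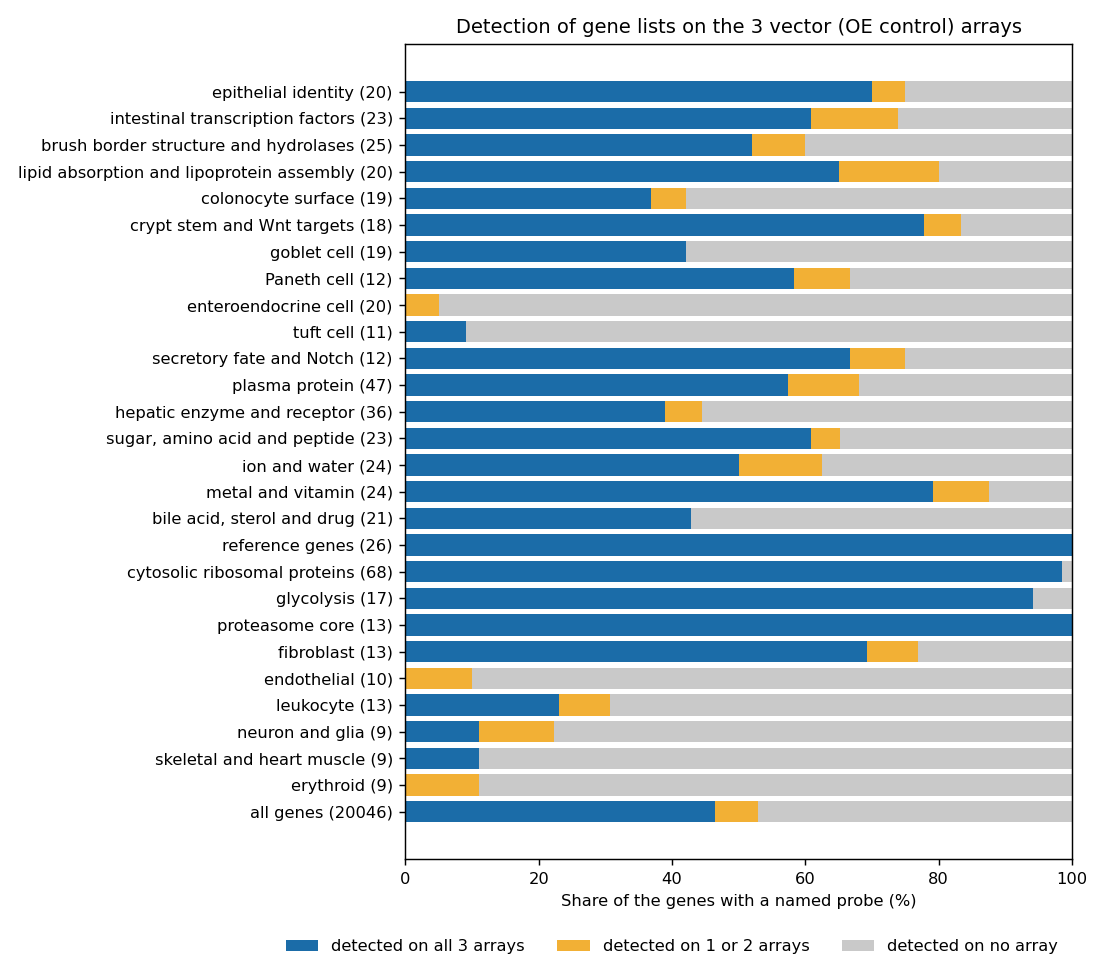
Share of each gene list, in percent of its genes with a named probe (number in brackets), that was detected on all 3 vector arrays, on 1 or 2 of them, or on none. Reference genes and the proteasome core reach 100%, and no enteroendocrine, endothelial or erythroid gene was detected on all 3, against 46.4% of all genes.

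The brightest probes belonged mainly to the protein-making machinery. The 20 genes with the highest signals were EEF1A1, TPT1, RPL41, RPL13AP5, RPS12, RPS27, RPLP2, RPL38, RPS29, RPSAP9, RPS25, ATP5F1B, PPIAL4A, FTL, ATP5F1EP2, S100A10, AFP, RPL6, SLC2A3 and CLEC2D. EEF1A1, which brings aminoacyl-tRNA to the ribosome, averaged 14.36 ± 0.04 and TPT1, the translationally controlled tumour protein, 14.35 ± 0.08 (SD, n = 3 each). FTL, the ferritin light chain that stores iron, averaged 14.13 ± 0.08, and S100A10, a partner of annexin A2, 14.13 ± 0.02. All 20 lay within 14.10 to 14.36, close to the top of the scale, where differences between probes are compressed.

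Among these 20, AFP and SLC2A3 were the listed genes outside the housekeeping class. Alpha-fetoprotein (AFP), the main plasma protein of the fetal liver and yolk sac, ranked 17 of 20046 genes. SLC2A3, a high-affinity glucose transporter, ranked 19. Symbols such as RPL13AP5, RPSAP9, PPIAL4A and ATP5F1EP2 name pseudogenes or close copies of abundant transcripts, so these probes may report the parent gene, and SLC2A3 has the near-identical paralogue SLC2A14. For CLEC2D, a lectin of lymphocytes, 2 of 5 probes were detected, and the assignment of its bright signal is uncertain. By list, the 100 brightest genes held 38 cytosolic ribosomal proteins, 4 reference genes, 3 glycolytic enzymes and 2 plasma proteins. GAPDH is on both the reference and the glycolysis list, and the apolipoprotein gene APOA1, at rank 73, and SLC2A3 are on other lists.

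**Figure D2:**
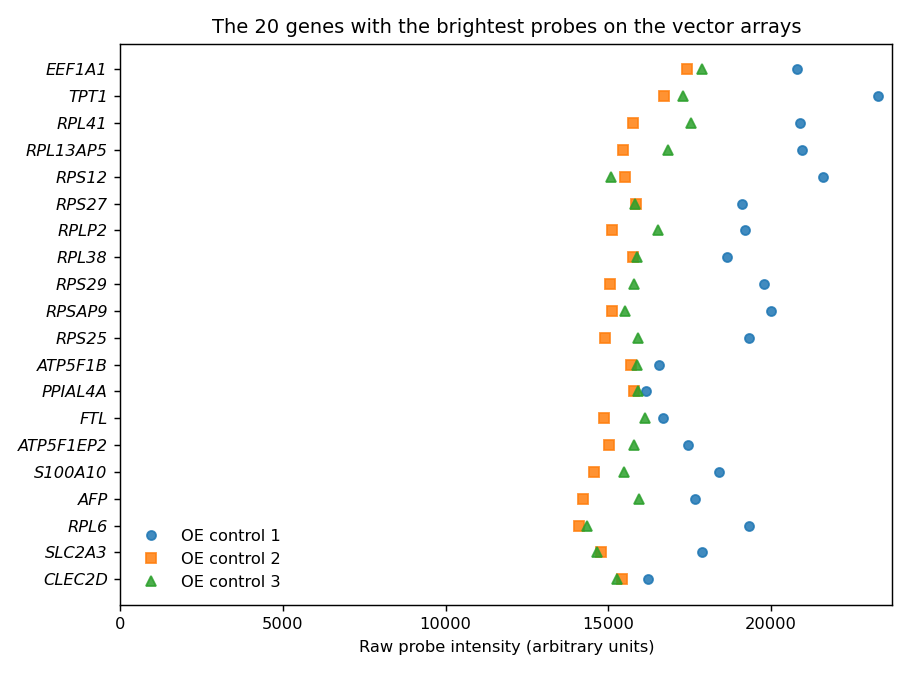
Raw probe intensity (arbitrary units, linear axis from 0) of the 20 genes with the highest mean level, 1 point for each vector array. OE control 1 lies to the right of the other arrays for every gene shown, before normalisation, and AFP and SLC2A3 stand among genes of translation.

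Genes of gut absorptive identity were detected for 75 of 125 with a named probe (60%), against 46.4% of all genes, with a median level of 8.97 among those detected. Members chosen for a role in the gut are not a random draw of genes, and these shares are descriptions. Of the epithelial identity list, 14 of 20 were detected. EPCAM, an adhesion molecule of epithelia, averaged 13.55 ± 0.04, and the simple-epithelial keratins KRT19 and KRT8 averaged 13.34 ± 0.08 and 12.91 ± 0.07. E-cadherin (CDH1), the junction protein of epithelia, averaged 12.81 ± 0.13 and the intestinal cadherin CDH17 12.15 ± 0.03. KRT5 and KRT14, keratins of stratified epithelia, were not detected, nor were the gut genes GPA33 and LGALS4 or the tight-junction gene OCLN.

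Intestinal transcription factors were detected for 14 of 23 genes. FOXA1, an endodermal pioneer factor, averaged 11.63 ± 0.03, CDX2 10.46 ± 0.10, FOXA2 10.01 ± 0.09 and CDX1, the close relative of CDX2, 9.87 ± 0.14. PPARG, a nuclear receptor for fatty acids, averaged 9.78 ± 0.08. KLF5, GATA6, PDX1 and SOX2 were also detected, whereas GATA4 and GATA5, factors of the proximal gut, and the vitamin D receptor VDR were not. SOX2, a factor of foregut rather than of intestine, was thus detected beside the CDX pair.

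The brush border list was detected for 13 of 25 genes, and those detected had a median at the 25.2 percentile of all detected genes. Ezrin (EZR), which ties membrane to actin in many epithelia, averaged 13.09 ± 0.12. The peptidases ENPEP, DPP4 and MEP1A, which trim peptides at the cell surface, averaged 10.64 ± 0.08, 8.97 ± 0.26 and 8.62 ± 0.45. Sucrase-isomaltase (SI), the disaccharidase that marks the differentiated brush border, was detected by both of its probes on the vector arrays. Its fellow hydrolases MGAM and TREH and intestinal alkaline phosphatase (ALPI) were not detected on the vector arrays, and lactase (LCT) was mixed.

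Fat absorption and lipoprotein assembly were detected for 13 of 20 genes. After APOA1 at 13.86 ± 0.08, apolipoprotein B (APOB), the structural protein of chylomicrons, averaged 11.42 ± 0.18 and the lipid droplet coat PLIN2 11.03 ± 0.06. APOC3, an inhibitor of lipoprotein lipase, averaged 11.00 ± 0.40, the widest spread of these, with 11.35, 11.07 and 10.57 on the 3 arrays. SAR1B, a GTPase needed to ship chylomicrons out of the endoplasmic reticulum, averaged 10.56 ± 0.09, and the triglyceride transfer protein gene MTTP was also detected. The carriers FABP1, FABP2 and FABP6 and the acyltransferase MOGAT2, which rebuilds triglyceride in enterocytes, were not detected. Most of these genes were named because they were bright or undetected, so they do not show a split of the list by function. The chylomicron apolipoprotein APOA4 was mixed, and the carrier RBP2 was detected.

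Colonocyte surface genes were detected for 7 of 19 genes (36.8%), below the share of all genes. Carbonic anhydrase CA2 averaged 10.03 ± 0.05, followed by CEACAM6 at 8.26 ± 0.12 and CEACAM1 at 7.95 ± 0.19, both adhesion molecules of gut cells. SLC26A3, the chloride-bicarbonate exchanger of colon, was detected at 7.78, 7.74 and 6.95, lowest on OE control 3. CA1, CA4, AQP8, MS4A12 and GUCA2B, genes of mature colonocytes, were not detected.

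Crypt and Wnt target genes were detected for 14 of 18 genes, the highest share in the gut class. AXIN2, a feedback inhibitor and readout of Wnt signalling, averaged 12.41 ± 0.13, MYC 11.04 ± 0.16, the polycomb gene BMI1 10.87 ± 0.13, and ASCL2, a Wnt-driven factor of intestinal stem cells, 10.72 ± 0.02. PROM1, a membrane protein of progenitors, averaged 10.65 ± 0.12. The stem cell genes LGR5 and OLFM4 were not detected on the vector arrays. LGR5, a receptor that amplifies Wnt signals, was detected on none of the 12 arrays, with vector levels of 5.37, 5.43 and 4.91.

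**Figure D3:**
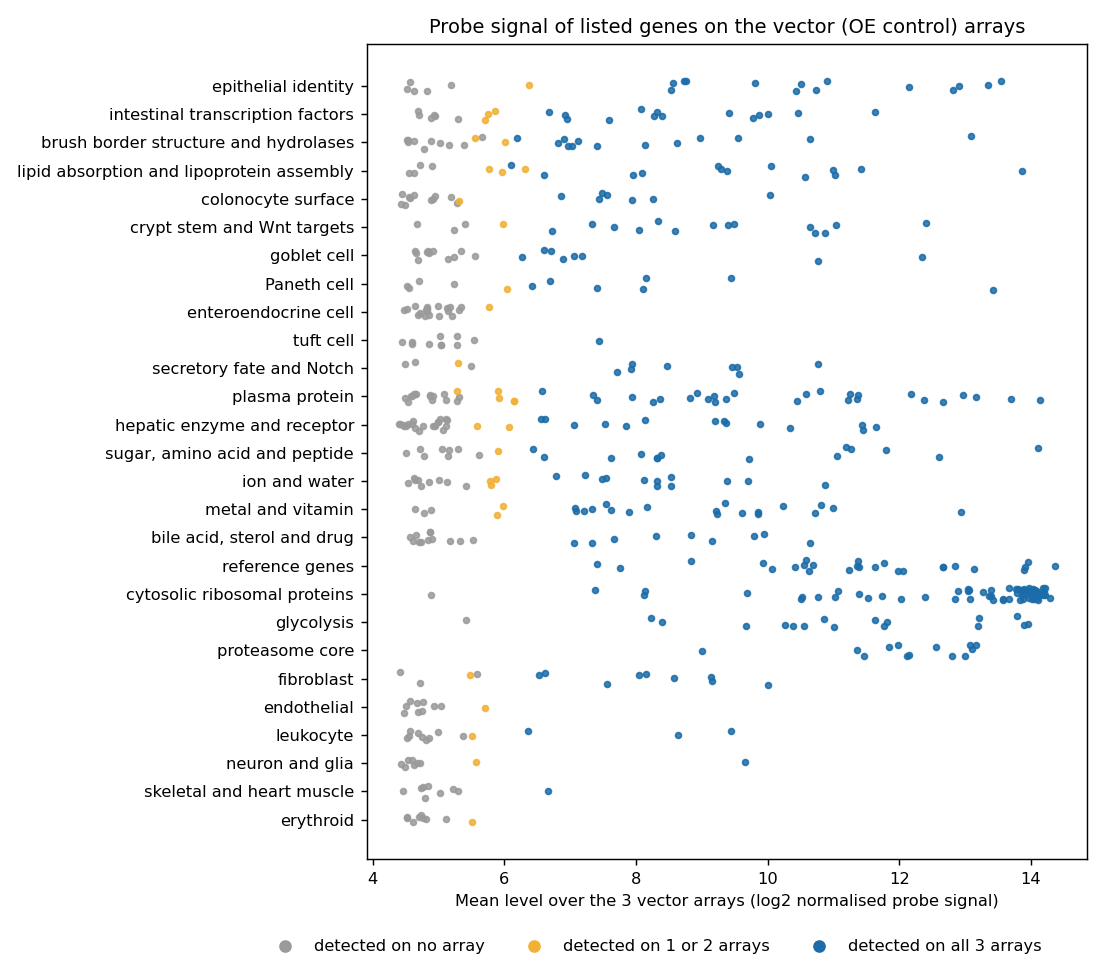
Mean level over the 3 vector arrays (log2 normalised probe signal) of each gene with a named probe, by list, with 1 point a gene coloured by detection. Ribosomal proteins crowd near 14, plasma proteins run from the floor up to AFP at 14.13, and enteroendocrine genes stay at the low end.

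Secretory lineage genes were detected for 24 of 74 genes (32.4%), and the lineages differed in their counts. Goblet cell genes were detected for 8 of 19, led by AGR2, a disulfide isomerase needed for mucin folding, at 12.34 ± 0.05 and the trefoil peptide TFF3 at 10.77 ± 0.23. MUC2, the gel-forming mucin that defines the goblet cell, had 4.96, 5.47 and 5.02 and was detected on none of the 12 arrays. FCGBP, SPINK4 and CLCA1, secreted with it, and the goblet factor SPDEF were not detected either. The mucins MUC13 and MUC1 and the list members AGR3, TFF1, TFF2 and ZG16 were also detected, at lower signals than TFF3. AGR2 and TFF3 were therefore detected without detection of MUC2, though not without detection of other mucins.

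Paneth cell genes were detected for 7 of 12. SPINK1, a trypsin inhibitor also made by many tumours, averaged 13.42 ± 0.02. Lysozyme (LYZ) averaged 9.44 ± 0.11 and the phospholipase PLA2G2A 8.15 ± 0.18, both antibacterial enzymes. The lectin REG3A averaged 8.11 ± 0.41 and the defensin DEFA6 7.42 ± 0.27, whereas the other defensin of the list, DEFA5, was not detected. REG3A had 8.37, 8.33 and 7.64, again lowest on OE control 3.

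Hormone-producing and chemosensory cells left almost no signal. Of 20 enteroendocrine genes, none was detected on all 3 arrays, and 1, the colonic peptide INSL5, was mixed. The granins CHGA, CHGB, SCG2, SCG3 and SCG5, packed in hormone granules, averaged between 4.71 and 5.17. Of 11 tuft cell genes, IL25, the cytokine by which tuft cells call immune cells, was detected at 7.44 ± 0.23 by 1 of 3 probes, while DCLK1, POU2F3 and TRPM5 were not. ATOH1, the factor that commits a crypt cell to a secretory fate, had 4.51, 4.54 and 4.40 and was detected on no array. The list of secretory fate and Notch genes, which includes ATOH1, was detected for 8 of 12 members. The brightest was SOX4, with 10.78, 10.73 and 10.77, and HES6 had 9.53, 9.70 and 9.36. NOTCH3 averaged 9.56 ± 0.07 and NOTCH1 9.46 ± 0.07, receptors whose activity opposes ATOH1, and their target HES1 averaged 8.47 ± 0.11. The Notch ligand DLL1 was also detected, so the detected members were not only those that oppose ATOH1.

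Liver-like genes included some of the brightest secreted proteins on the array. The class was detected for 41 of 83 genes (49.4%), close to all genes, with a median level of 9.37 among those detected. Plasma proteins were detected for 27 of 47, with 5 mixed and 15 not detected, and 9 of the 27 lay in the top 10% of detected genes. AFP had 14.11, 14.07 and 14.20, with raw intensities of 14222.7 to 17679.8, and its 3 vector arrays overlapped with those of OE Sirt1. Apolipoprotein A2 (APOA2) averaged 13.70 ± 0.08, albumin (ALB), the main protein of adult plasma, 13.17 ± 0.17, APOE 12.97 ± 0.13, and the protease inhibitor SERPINA1 12.66 ± 0.15.

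The fibrinogen chains, which join into the clot precursor secreted by hepatocytes, were detected together. FGG, the gamma chain, had 12.52, 12.42 and 12.17, and FGB, the beta chain, had 10.46, 10.57 and 10.34. FGA, the alpha chain, singled out after its values were seen, had 11.39, 11.38 and 11.28. The 3 chains lie side by side on chromosome 4, and AFP lies elsewhere on the same chromosome. Their promoter windows are shown because these chains were detected together at high signal and FGG and FGB also differed between the control cultures, and that of AFP because it was the brightest plasma protein. Each window spans 250 bases before to 50 after the RefSeq start (GRCh38.p14), written 5′ to 3′ on the gene's strand, with CTGGGA, the core of the acute-phase element, and TATAAA, the TATA box, in capitals on either strand.

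FGG, minus strand of chr4:154612607-154612906, FGB, plus strand of chr4:154562730-154563029, FGA, minus strand of chr4:154590693-154590992, and AFP, plus strand of chr4:73435971-73436270, read as follows.
FGG: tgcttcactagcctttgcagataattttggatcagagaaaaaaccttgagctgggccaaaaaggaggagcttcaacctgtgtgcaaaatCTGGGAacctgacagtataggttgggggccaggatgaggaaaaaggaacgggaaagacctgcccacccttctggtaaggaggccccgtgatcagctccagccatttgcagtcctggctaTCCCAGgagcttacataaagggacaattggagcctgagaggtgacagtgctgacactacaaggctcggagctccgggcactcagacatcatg
FGB: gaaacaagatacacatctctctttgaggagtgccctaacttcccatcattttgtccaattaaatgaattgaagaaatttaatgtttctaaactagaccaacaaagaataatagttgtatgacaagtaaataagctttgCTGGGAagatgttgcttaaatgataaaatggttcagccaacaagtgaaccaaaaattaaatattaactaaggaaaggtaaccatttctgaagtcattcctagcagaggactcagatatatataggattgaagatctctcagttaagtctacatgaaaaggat
FGA: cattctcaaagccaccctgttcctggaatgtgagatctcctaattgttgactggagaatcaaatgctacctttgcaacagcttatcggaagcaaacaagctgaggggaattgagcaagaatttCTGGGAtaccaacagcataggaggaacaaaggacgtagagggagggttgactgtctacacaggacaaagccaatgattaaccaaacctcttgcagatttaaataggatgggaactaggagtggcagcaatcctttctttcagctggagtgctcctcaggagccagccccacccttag
AFP: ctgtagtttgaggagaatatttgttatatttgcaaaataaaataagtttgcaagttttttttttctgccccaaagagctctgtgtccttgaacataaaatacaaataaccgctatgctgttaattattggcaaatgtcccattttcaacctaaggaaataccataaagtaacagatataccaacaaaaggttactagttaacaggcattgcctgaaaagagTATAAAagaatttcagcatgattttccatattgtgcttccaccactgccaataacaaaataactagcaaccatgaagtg

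CTGGGA occurred at 2 places in the FGG window, 1 of them read on the opposite strand as TCCCAG, and at 1 place each in the FGB and FGA windows. The AFP window held no CTGGGA and held TATAAA 29 bases before its start. Of 27305 promoter windows of the same length, 33.4% held CTGGGA and 12.0% held TATAAA, so a CTGGGA match is common. Among 23 detected plasma protein genes with a window, 34.8% held CTGGGA and 17.4% held TATAAA, against 34.4% and 5.58% of 7581 detected genes. Of 11 plasma protein genes not detected, 45.5% held CTGGGA and 36.4% held TATAAA, higher shares than among those detected. These matches describe letters in a window, not bound sites.

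Hepatic enzymes and receptors were detected for 14 of 36 genes (38.9%). The retinal dehydrogenase ALDH1A1 averaged 11.64 ± 0.05, the urea cycle enzyme ASS1 11.45 ± 0.12, and glypican GPC3, a fetal liver surface protein, 11.43 ± 0.17. The asialoglycoprotein receptor chains ASGR1 and ASGR2, which clear desialylated plasma proteins, averaged 10.34 ± 0.19 and 9.89 ± 0.19. CYP7A1, the rate-limiting enzyme of bile acid synthesis, had 4.42, 4.44 and 4.40, and the drug oxidases CYP3A4, CYP2C8 and CYP1A2 were likewise not detected. Of the 35 hepatic-like genes not detected here, 25 were detected on none of the 12 arrays.

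Transporters were detected for 54 of 92 genes (58.7%), with a median level of 8.53. Among carriers of sugars, amino acids and peptides, 14 of 23 were detected. SLC2A3 had 14.12, 14.12 and 14.07, and SLC2A1, the glucose transporter of most proliferating cells, had 12.73, 12.58 and 12.53. The amino acid carriers SLC7A5, SLC38A2 and SLC38A1 averaged 11.80 ± 0.04, 11.27 ± 0.20 and 11.19 ± 0.14. Several absorptive carriers of the small intestine were not detected: SLC5A1, which takes up glucose with sodium, had 4.85, 4.97 and 5.33, and SLC15A1, which takes up peptides, had 4.77, 4.72 and 4.65. The basolateral glucose carrier SLC2A2 and the neutral amino acid carrier SLC6A19 were not detected either. Absorptive carriers were not uniformly undetected: SLC36A1, a proton-coupled amino acid carrier, and SLC7A9 and SLC3A1, which together take up cystine and basic amino acids, were detected on all 3 arrays.

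Metal and vitamin carriers had the highest share of the class, with 19 of 24 detected. The transferrin receptor TFRC, by which cells take up iron, averaged 12.93 ± 0.05, and the divalent metal transporter SLC11A2, which absorbs dietary iron, had 11.00 on each of the 3 arrays. The zinc and iron carrier SLC39A14 averaged 10.81 ± 0.17, the vitamin carrier SLC5A6 10.72 ± 0.06, and ferroportin (SLC40A1), the iron exporter, 10.24 ± 0.08. The genes SLC11A2, SLC40A1 and TFRC, for apical uptake, basolateral export and transferrin uptake of iron, were thus all detected as RNA. Cubilin (CUBN), the receptor for the vitamin B12 carrier, was not.

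Ion and water transport was detected for 12 of 24 genes and bile acid, sterol and drug transport for 9 of 21. The sodium pump subunit ATP1B1 averaged 10.87 ± 0.19, and the chloride channel CFTR 8.53 ± 0.08. The sodium-proton exchanger SLC9A3 and the sodium channel chains SCNN1B and SCNN1G were not detected, although the alpha chain SCNN1A was. The organic anion carrier SLCO2B1 averaged 10.65 ± 0.05, and the efflux pumps ABCC3, ABCC4 and ABCC2 averaged 9.95 ± 0.07, 9.16 ± 0.03 and 8.83 ± 0.07. The drug efflux pump ABCB1 was detected, and its fellow ABCG2 was not, with 4.99, 5.10 and 5.45. The ileal bile acid carrier SLC10A2 was not detected.

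Housekeeping genes set the ceiling of the scale and the limit of the detection call. Of 119 genes, 117 (98.3%) were detected, with a median level of 13.07 at the 98.0 percentile of detected genes. All 26 reference genes and all 13 proteasome core genes were detected. GAPDH averaged 13.95 ± 0.06, tubulin TUBA1B 13.91 ± 0.18, actin ACTB 13.89 ± 0.10 and EEF2 13.13 ± 0.16. PSMB1, PSMB7 and PSMB3, beta subunits of the proteasome, averaged 13.17 ± 0.07, 13.11 ± 0.15 and 13.07 ± 0.10.

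The ribosomal proteins show what a missed detection can mean. Of 68 cytosolic ribosomal proteins, 67 were detected, with a median of 13.86. RPL10, a subunit of the large ribosome that growing cells need, had 4.73, 5.24 and 4.71, and neither of its 2 probes was detected on any of the 12 arrays. The glycolytic enzymes were detected for 16 of 17, led by GAPDH, by ENO1 at 13.89 ± 0.01 and by LDHA at 13.79 ± 0.07. The exception, the enolase ENO2, had 5.51, 5.41 and 5.34.

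Markers of cells that a Caco-2 culture should lack were detected for 14 of 63 genes (22.2%). No endothelial or erythroid marker was detected on all 3 arrays, and the leukocyte genes PTPRC, CD3D, CD3E, CD4 and MS4A1 were not detected on any vector array. Of 13 leukocyte genes, LYZ, CD14 at 8.64 ± 0.06 and CSF1R were detected, and LYZ is also a Paneth cell gene. The neuronal tubulin TUBB3, often made by tumour lines, averaged 9.65 ± 0.07, with the neuronal markers RBFOX3, SNAP25 and GAP43 not detected. Fibroblast markers were the most often detected of these lists, at 9 of 13, with collagen COL1A2 at 10.01 ± 0.07, COL6A3 at 9.15 ± 0.39, vimentin (VIM) at 9.15 ± 0.15 and PDGFRA at 8.57 ± 0.15. Their fellow fibroblast genes DCN, THY1 and FAP were not detected, and whether the list reports other cells or the line itself was not tested.

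The edge of the detection call was narrow. Just outside it, the lowest detection value of 3 was 0.988 for the claudin CLDN4 and for REG1A and 0.9896 for the cholesterol carrier NPC1L1. Just inside it, the value was 0.992 for the brush border adaptor ANKS4B and 0.994 for the gluconeogenic enzyme FBP1 and for CSF1R. CLDN4 had levels of 6.58, 6.78 and 5.79, and FBP1 had 7.10, 6.69 and 6.05, so that in each case OE control 3 was the lowest array.

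Spread among the vector arrays was small for most genes. The median SD over detected genes was 0.13, and 54 of 9299 (0.581%) had an SD above 0.5. By class the median SD was 0.08 for housekeeping, 0.13 for gut absorptive, 0.14 for transporter, 0.17 for hepatic-like and 0.19 for secretory genes. The 10 detected genes with the largest spread were OAZ2, ERGIC1, GADD45GIP1, ROCK1, CAPN12, STAG3, DOHH, SLC35D3, CCDC183 and MELTF, none of them in a list. For ROCK1 and CAPN12 the spread is that of a probe below the detection threshold on 2 and 1 of the 3 arrays, the genes being detected by another probe. OAZ2, an antizyme that restrains polyamine synthesis, had 8.90, 6.92 and 8.04, so that OE control 2 was the low array. ERGIC1, a protein of the early secretory pathway, had 8.93, 7.71 and 7.61, with OE control 1 the high array.

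Across the study, the baseline was largely shared. Of the 323 listed genes detected on the vector arrays, 319 were detected on all 12 arrays, and of the 198 not detected, 135 were detected on none. Another 17 of the 198 were detected on both siRNA control arrays. Pearson's r across genes between vector arrays and others ran from 0.989 to 0.992 for OE Sirt1 and from 0.974 to 0.979 for the siRNA control. Arrays within a knockdown group differed, with r from 0.985 to 0.988 for KD1 1 and from 0.967 to 0.971 for KD1 2. For KD2 2 it ran from 0.972 to 0.979 and for KD2 3 from 0.956 to 0.962. The vector arrays were about as close to the OE Sirt1 arrays as to each other.

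**Figure D4:**
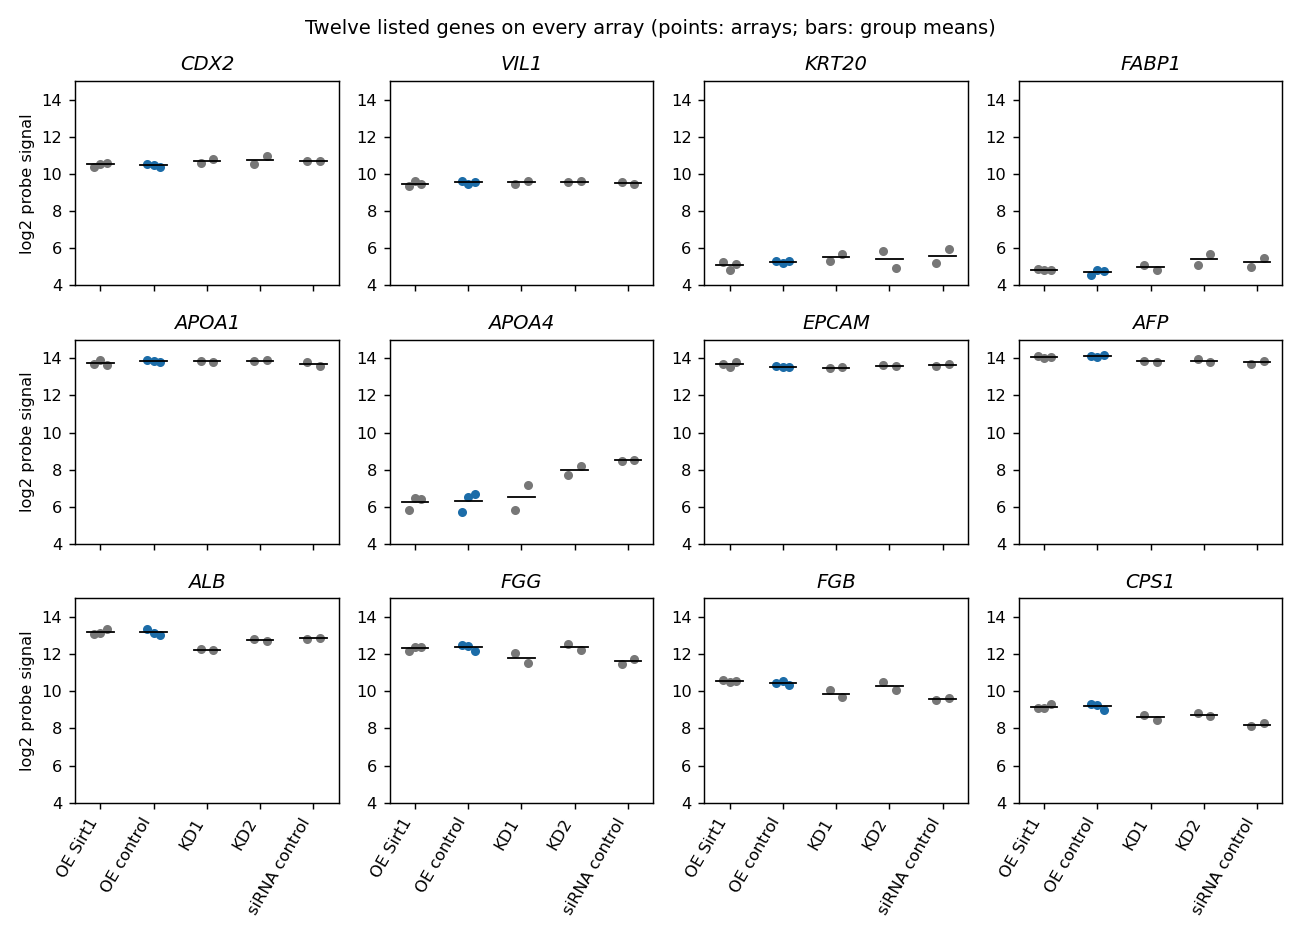
Level (log2 normalised probe signal) of 12 listed genes on every array, with points for arrays and bars for group means, vector arrays (OE control) in blue. CDX2, VIL1, APOA1 and EPCAM vary little between groups on this scale, and KRT20 and FABP1 are low on the vector arrays. APOA4 is low in both plasmid groups and also on KD1 1, at 5.84. FGG, FGB and CPS1 are higher on the vector arrays than in the siRNA control. On the KD2 arrays FGG had 12.53 and 12.21, near the vector levels, and CPS1 had 8.815 and 8.65, below them.

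The vector controls were set against the scrambled siRNA controls to see which baseline genes differed between the control groups. Of 553 listed genes with a named probe, 390 passed the filter of detection on at least 2 of the 12 arrays, and 41 of these were called by limma, 11 higher and 30 lower. Over all 11458 genes tested, 578 (5.04%) were called at an adjusted p below 0.05, 145 higher (1.27%) and 433 lower (3.78%). Of the 5 markers, 4 passed the filter and none of these was called, and FABP1 was not tested. By class, the calls were 8 of 94 gut absorptive, 3 of 38 secretory, 6 of 51 hepatic-like, 13 of 68 transporter, 7 of 118 housekeeping and 4 of 23 genes of other cell types. The median log2 fold change was 0.01 over all genes, -0.08 over the transporters and 0.08 over the hepatic-like genes.

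Higher genes on the vector arrays included hepatic-like, Paneth and epithelial members. CPS1, the entry enzyme of the urea cycle, had 9.33, 9.27 and 9.00 in OE control, against 8.12 and 8.27 in the siRNA control, and was higher by 1.00 on the log2 scale (SE 0.14, limma adjusted p = 0.0105). FGB had 10.34 to 10.57 in OE control, against 9.55 and 9.63 in the siRNA control, and was higher by 0.87 (SE 0.16, limma adjusted p = 0.0194). FGG had 12.17 to 12.52 in OE control, against 11.49 and 11.73 in the siRNA control, and was higher by 0.76 (SE 0.18, limma adjusted p = 0.0432). That the control cultures did not overlap was a condition for naming these 3 genes, and is no added evidence. The cultures did not overlap for FGA and AFP either. FGA had 11.28 to 11.39 in OE control, against 10.43 and 10.82 in the siRNA control, but did not pass (log2 fold change 0.72, SE 0.23, limma adjusted p = 0.101). AFP had 14.07 to 14.20 in OE control, against 13.70 and 13.86 in the siRNA control, and did not pass either (limma adjusted p = 0.0839).

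REG3A had 7.64 to 8.37 in OE control, against 6.96 and 6.91 in the siRNA control, and was 2.26-fold higher (limma adjusted p = 0.0276), and PLA2G2A 1.92-fold (limma adjusted p = 0.0224). Keratin KRT18 had 8.60, 8.32 and 8.69 in OE control, against 7.73 and 7.36 in the siRNA control. It was 1.98-fold higher (limma adjusted p = 0.0141), by 1 of 2 probes detected on the vector arrays. The other higher members were the crypt gene SMOC2 and the channel CFTR, at log2 fold changes of 0.83 each, the folate carrier SLC46A1 at 0.68 and the ribosomal proteins RPS7 and RPL29 at 0.64 and 0.49.

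In the fit reported, lower genes on the vector arrays were most numerous among transporters, with 11 lower and 2 higher of 68. With only the 2 groups compared, transporters and gut absorptive genes had 7 lower each, and with the replicate number as a block 6 each. The counts were 13 and 12 with the authors' values and 13 and 8 with a trended robust variance. AQP10, an aquaglyceroporin of the small intestine, had 5.93, 6.20 and 5.21 in OE control, where 2 of 3 arrays detected it, against 10.00 and 9.81 in the siRNA control (log2 fold change -4.13, SE 0.54, limma adjusted p = 0.0099). The fructose carrier SLC2A5 was mixed in OE control and differed by -2.03 on the log2 scale (SE 0.41, limma adjusted p = 0.026). The bile acid exporter chain SLC51A and the cation carrier SLC22A4 were not detected on any vector array, and were at least 3.11-fold and 2.03-fold lower. These bounds set each undetected array at the lowest signal of a detected probe on it, or at its own signal where that was higher. The iron genes SLC11A2, TFRC and SLC40A1 were 1.68-fold, 1.49-fold and 1.44-fold lower (limma adjusted p = 0.0179, 0.0181 and 0.0323).

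**Figure D5:**
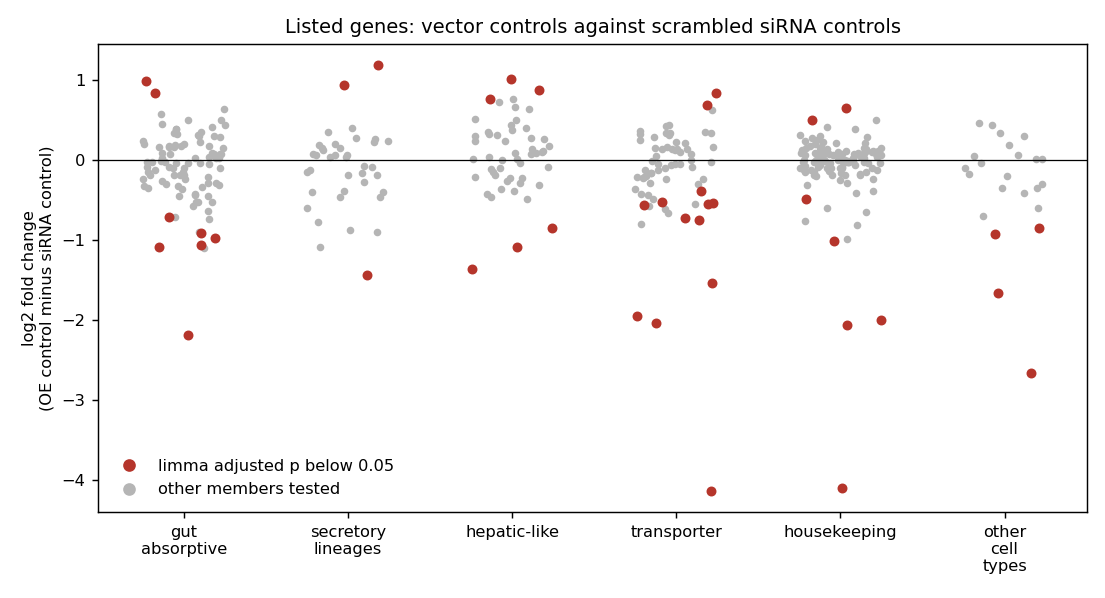
Log2 fold change, OE control minus siRNA control, of each listed gene tested, by class, with genes past a limma adjusted p of 0.05 in red and the others in grey. Transporters hold the most lower calls in the fit reported (11 of 68), and AQP10 lies lowest at -4.13. Genes not detected on any vector array, such as ENO2, are drawn at their fitted value, which is not a measured fold.

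Glycolytic enzymes were lower for 5 of 17 members and higher for none, against 3.78% lower of all genes. ALDOC, an aldolase, had 10.54, 10.34 and 9.90 in OE control, against 12.52 and 12.12 in the siRNA control (log2 fold change -2.06, SE 0.41, limma adjusted p = 0.0251). Hexokinase HK2 was 3.99-fold lower (limma adjusted p = 0.0191), PGK1 2.03-fold (limma adjusted p = 0.0154) and LDHA 1.41-fold (limma adjusted p = 0.043). ENO2 was not detected in OE control and was at least 12.8-fold lower. This list had differed between these arrays in earlier analysis of the same data and is no independent evidence.

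In the gut and liver-like classes, APOA4, a chylomicron apolipoprotein, had 5.73, 6.56 and 6.67 in OE control, against 8.49 and 8.52 in the siRNA control, and differed by -2.18 on the log2 scale (SE 0.39, limma adjusted p = 0.0191). PLIN2, CEACAM1 and the differentiation factor KLF4 were lower, with log2 fold changes of -1.09, -1.06 and -0.98. The Notch ligand DLL1 was lower, at -1.44 (SE 0.36, limma adjusted p = 0.0497), as was the glucuronosyltransferase UGT1A6, at -0.86 (SE 0.15, limma adjusted p = 0.0165). The enzymes AGXT, of glyoxylate metabolism, and PCK1, of gluconeogenesis, were not detected in OE control and were at least 1.44-fold and 1.14-fold lower. NR1I3, a xenobiotic receptor, and AQP3 were called but allowed no bound.

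Among markers of other cell types, CSF1R, a receptor of macrophages, had 6.51, 6.52 and 6.04 in OE control, against 9.08 and 8.96 in the siRNA control (log2 fold change -2.66, SE 0.51, limma adjusted p = 0.0214). COL1A2 and PDGFRB were lower, with log2 fold changes of -0.86 and -0.92, and the muscle gene TNNI2, not detected in OE control, was at least 1.81-fold lower. The mean level of the 13 leukocyte genes was 5.57 to 5.67 in OE control and 5.95 to 6.03 in the siRNA control, and that of the 13 fibroblast genes was 7.16 to 7.32 in OE control and 7.31 to 7.38 in the siRNA control. The leukocyte mean includes the called gene CSF1R, and the fibroblast mean includes COL1A2 and PDGFRB, so these means are not separate from the calls. PTPRC, the pan-leukocyte marker, was not detected on the vector arrays. Detected probe counts were also lower, at 15345 to 15871 in OE control and 17483 to 17981 in the siRNA control, and the part of either in these calls was not tested.

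These calls rested on 2 siRNA control arrays: without either one, limma called 0 genes, and without OE control 1, 2 or 3 it called 166, 198 or 134. With the authors' normalised values 1057 genes were called, 384 higher and 673 lower. Plasmid or siRNA transfection, harvest time and culture cannot be told apart as sources of the differences. The siRNA arrays, all lysed after 72 h, also differed within a group. CSF1R had 6.332 on KD1 1 and 8.165 on KD1 2, and HK2 had 8.84 and 10.24, whereas UGT1A6 had 8.68 and 8.92. The source of that spread was not tested.

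The vector controls were also the reference for the SIRT1 plasmid, and no baseline gene differed detectably with it. In OE Sirt1 against OE control, limma called 0 of 11458 genes (0%), 404 had an unadjusted p below 0.05 and the smallest adjusted p was 0.565. In simulated data of this comparison, 80.6% of 2-fold but only 35.2% of 1.5-fold changes were recovered, so modest differences could have been missed. Of the 390 listed genes tested, 9 had an unadjusted p below 0.05, and the median log2 fold change was 0.01. CDX2 had 10.39, 10.56 and 10.58 in OE Sirt1, against 10.56, 10.48 and 10.35 in OE control. AFP had 14.13, 14.04 and 14.07 in OE Sirt1, against 14.11, 14.07 and 14.20 in OE control, and APOA4 had 5.85, 6.48 and 6.42, against 5.73, 6.56 and 6.67. The groups overlapped for each of these genes, and without OE Sirt1 3 a single gene, EPG5, an autophagy factor named after its value was seen, was called higher.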

How the data were processed

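RNA of 12 Caco-2 arrays was measured on Illumina bead arrays read with GenomeStudio 2010.1, per the submitters' processing notes. Each of 47323 probes has an intensity that the authors deposited unnormalised. Beside each intensity the deposited table holds a detection p-value, written as its complement to 1, whose rank correlation with intensity was at least 0.986 on the vector arrays. The authors also deposited normalised log2 values by a method that these sources do not state. The series' value table repeats these and was not used. No genome build is given for the arrays.

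Intensities of all 12 arrays were background-corrected and quantile-normalised to log2 with neqc (offset 16, limma 3.58.1, R 4.3.3). Of the probes, 30113 had 1 gene symbol, 8 had several and 17202 had none here. Of 608 listed genes, 553 had a named probe. Detection and levels carry no test. Comparisons used 1 limma fit over 12 arrays and 5 groups (7 residual degrees of freedom) on 11458 genes, two-sided, adjusted by Benjamini and Hochberg. The number of arrays limits precision: the median SE of OE control minus siRNA control was 0.16. In simulated data of that design, 75.6% of 2-fold changes were recovered, 6.55% of calls being false, over 11458 genes.

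The members, lists and tests were chosen with earlier results of these data known. Named genes were the 5 markers, the 20 brightest, the 10 most variable, up to 5 brightest and 5 undetected members of each list, and up to 5 called members in each direction per class and comparison whose groups did not overlap. The called genes TFRC, SLC40A1 and AQP3, the genes at the edge of the detection call, the chain FGA and EPG5 lie outside that rule and were chosen after their values were seen. Replicate numbers were not taken to pair arrays. Deviations of like-numbered arrays from their group means correlated at 0.11 and 0.08 for OE control with siRNA control. For OE Sirt1 with OE control they correlated at -0.16, -0.11 and 0.03. Deviations within groups of 2 or 3 arrays are tied to each other, so these values cannot show whether arrays were paired.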

Additional observations from a re-analysis of the deposited data

How the results depend on the processing

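The count of genes detected on all vector arrays was 9299 and ranged from 9284 to 10184 over a detection threshold of 0.95, detection on at least 2 of 3 arrays, the brightest probe alone and leaving out each vector array. Every class count stayed within 1.5 times under these settings. Of the 20 brightest genes, 20 were shared with the authors' normalised values and 16 to 18 when 1 vector array was left out. The level of a named gene moved by more than its SD for 162 of 255 genes with the authors' values. It did so for 136 with an offset of 50 and for 129 with the vector arrays normalised alone. Leaving out 1 of 3 arrays cannot move a mean by more than its SD, so that setting could not test the levels. For OE control minus siRNA control, 578 genes were called by limma in the fit reported, 1057 with the authors' values, 1011 with a trended robust variance, 297 with no detection filter, 327 with the replicate block and 0 to 198 with 1 array left out. With the replicate block, 8 of 34 named fold changes no longer passed (DLL1, FGG, LDHA, PCK1, REG3A, RPL29, SLC2A5 and SLC46A1). With no detection filter 9 of the 34 did not pass, and with 1 vector array left out many did not. None of the 34 changed direction there or in another setting. Their groups were chosen not to overlap, so leaving out an array could not reverse a direction. OE Sirt1 minus OE control gave 0 calls in every setting except that leaving out 1 array gave 0 to 1. Signal near background limits the calls of absence, and the causes of these shifts were not tested.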
